A study of Drosophila melanogaster with 3 samples.

Results

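The genes described here carry symbols of adult reproductive genes of Drosophila melanogaster: seminal fluid proteins (Sfp), accessory gland proteins (Acp), male-specific transcripts (Mst), vitelline membrane proteins (Vm) and chorion proteins (Cp7F, Cp15, Cp16, Cp18, Cp19, Cp36 and Cp38). A symbol pattern found 80 of them among 13945 protein-coding genes on the 6 chromosome arms. Roles were assigned from the gene symbols. By these, 48 were classed as seminal fluid genes, 15 as other male-specific transcripts, called testis genes below, and 14 as eggshell genes. The remaining 3 are not reproductive genes and entered by name alone. Acp1 and Acp65Aa encode adult cuticle proteins, and Cp190 encodes a chromatin insulator protein first found at centrosomes. The other 77 are called reproductive genes below.

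The peak lists came from chromatin immunoprecipitation and sequencing of whole embryos of mixed sex, 0 to 24 hours old, in 3 biological replicates of 1 group. All carried a stable transgene in which the homeodomain protein CG18599 ends in a green fluorescent protein (GFP), which an anti-GFP antibody recovered from chromatin sheared to 200 to 800 bp. The promoter that drives the fusion is not given in the sources used here, and no control sample was analysed here. Library depth is unknown, because read counts are not part of the lists. In whole embryos, a site held strongly in few cells and a site held weakly in many cannot be told apart.

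Seminal fluid proteins are made in the male accessory glands and pass to the female with sperm, where they alter egg laying, mating receptivity and sperm storage. Several Mst genes encode proteins of the sperm tail or of sperm chromatin and are transcribed in spermatocytes. Vitelline membrane and chorion proteins are secreted by ovarian follicle cells in a fixed order as the eggshell is built, and the chorion gene clusters are amplified in these cells beforehand. Homeodomain proteins are transcription factors that often bind sequences with a TAAT core. The labelled samples are embryos, a stage before accessory glands, mature sperm or egg chambers have formed.

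The IDR list holds peaks that passed the irreproducible discovery rate filter, a comparison of peak ranks between replicates. Each of its summits was assigned to the gene with the nearest transcription start site (TSS) of any transcript. A gene was called occupied when at least 1 IDR summit within 10 kb was assigned to it. The 5 summits assigned to reproductive genes are the sites on which the account turns, and the 101 bases centred on each are given here on the plus strand of dm6, read from the RefSeq Release 6 sequence. Capitals mark TAAT or its reverse complement.
Mst85C summit (chr3R:9048323-9048423, plus strand): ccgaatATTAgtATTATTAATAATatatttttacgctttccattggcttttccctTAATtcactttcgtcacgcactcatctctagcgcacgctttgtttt
Mst33A summit (chr2L:11589171-11589271, plus strand): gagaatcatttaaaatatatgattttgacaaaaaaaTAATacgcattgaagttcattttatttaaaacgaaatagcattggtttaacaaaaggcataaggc
Acp63F summit (chr3L:3817085-3817185, plus strand): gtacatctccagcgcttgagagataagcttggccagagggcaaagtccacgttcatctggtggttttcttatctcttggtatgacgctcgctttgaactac
Sfp65A summit (chr3L:6344374-6344474, plus strand): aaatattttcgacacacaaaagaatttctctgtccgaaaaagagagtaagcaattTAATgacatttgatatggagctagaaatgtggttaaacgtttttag
Acp33A summit (chr2L:11592633-11592733, plus strand): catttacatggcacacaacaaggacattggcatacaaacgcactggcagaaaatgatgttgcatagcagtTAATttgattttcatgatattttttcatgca

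The short core TAAT lay in 4 of these 5 windows, all but that of Acp63F, against 71.8% of all 8858 IDR windows of equal length. The longer core TAATTA, read on either strand, lay in 0 of the 5, against 9.04% of all IDR windows. The share of A and T bases ran from 51.5% at Acp63F to 75.2% at Mst33A, beside a mean of 63.9% over all IDR windows. With 5 windows these values only describe the sites.

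Of the 80 genes, 6 were occupied, or 7.50%, and the share over all protein-coding genes was 29.3%. The list was chosen by the values described here, the summit assignments in the IDR and replicate lists, so the counts and shares are given as descriptions and carry no test. The occupied genes were Cp190, the testis genes Mst85C and Mst33A, and the seminal fluid genes Acp63F, Sfp65A and Acp33A. Of the reproductive genes, 5 of 77 (6.49%) were occupied. By role these were 3 of 48 seminal fluid genes (6.25%), 2 of 15 testis genes (13.3%) and 0 of 14 eggshell genes. Each of the 5 had 1 summit.

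Cp190 carried by far the strongest of these peaks. Its summit lay 136 bp upstream of the TSS and 145 bp from that of the neighbouring gene CG4338, between the 2 genes on 3R. The peak ran from 15275163 to 15275591 and had rank 149 in the IDR list by the authors' signal value. It held rank 160 in replicate 1, 148 in replicate 2 and 150 in replicate 3. It belongs to a gene outside reproduction and is left out of the counts of reproductive genes below.

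Mst85C, a testis gene on 3R, had the strongest peak among the reproductive genes, from 9048153 to 9048592, at rank 2697. The ranks in replicates 1, 2 and 3 were 2854, 2807 and 3010. The summit lay 272 bp upstream of the TSS of Mst85C and 278 bp from a TSS of Nmdmc, a folate pathway enzyme gene read in the opposite direction. These start sites lie 6 bp apart and the summit falls in an intron of Nmdmc, so the nearest-TSS rule gave the peak to Mst85C by that margin.

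Mst33A and Acp33A lie together within the span of kek2, a gene of the kekkon family of transmembrane proteins, on 2L. The peak assigned to Mst33A ran from 11589001 to 11589440, with its summit 2388 bp upstream of the TSS of Mst33A and 2457 bp from that of Acp33A. It had rank 5272 in the IDR list, and ranks 5165, 5651 and 5329 in replicates 1, 2 and 3. Acp33A encodes an accessory gland protein. Its peak, from 11592463 to 11592902, had its summit 1005 bp upstream of the TSS and was the weakest of the 5, at rank 8171. The ranks in replicates 1, 2 and 3 were 8101, 10690 and 8632. Replicate 2 thus placed it below its strongest 8858 peaks, and the other 2 replicates placed it near the end of theirs.

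Acp63F, an accessory gland protein gene, lies within Scsalpha1, which encodes a subunit of succinyl-CoA synthetase, on 3L. The peak from 3816915 to 3817354 had its summit in an intron of Scsalpha1, 781 bp upstream of the TSS of Acp63F. It had rank 6404, and ranks 7146, 6196 and 5824 in replicates 1, 2 and 3.

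Sfp65A, a seminal fluid protein gene, lies within CG13300 on 3L. The peak assigned to it, from 6344204 to 6344643, had its summit in an intron of CG13300, 5852 bp upstream of the TSS of Sfp65A and 7966 bp from that of CG13300. It had rank 6685, and ranks 6039, 6549 and 7305 in replicates 1, 2 and 3. The replicate 3 summit stood 245 bp away, near the limit of 250 bp used to match summits. A weaker IDR summit, at rank 7839, lay 2153 bp from the TSS of Sfp65A but 39 bp from that of CG13300, to which it was assigned.

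**Figure D1:**
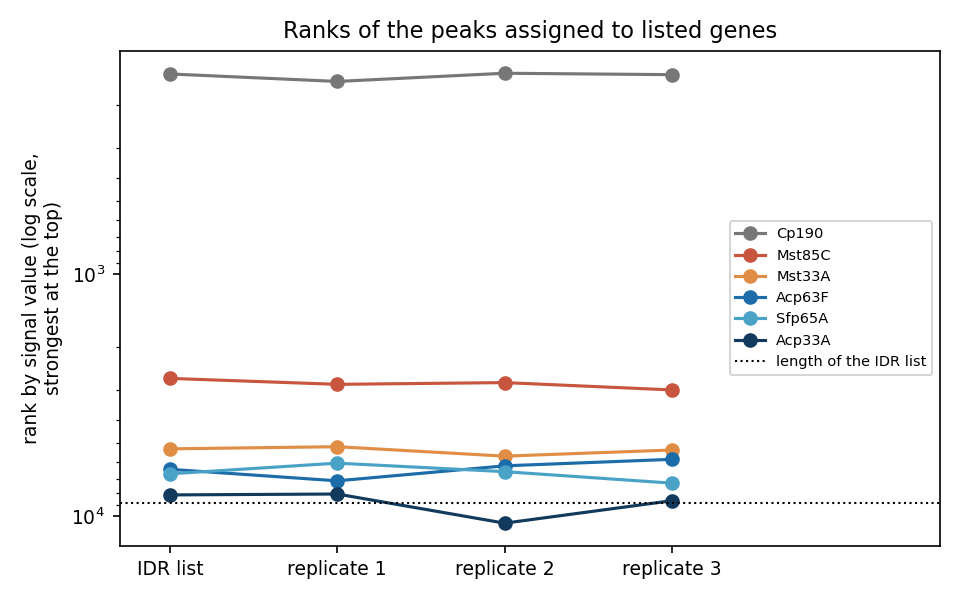
Rank of the 6 peaks assigned to genes of the symbol list, in the IDR list and in each replicate list (log axis, strongest at the top; the dotted line marks the 8858 entries of the IDR list). Cp190 stood between ranks 148 and 160 throughout, and only the Acp33A peak crossed the dotted line, at rank 10690 in replicate 2.

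Of the 5 occupied reproductive genes, 4 had peaks weaker than the median of occupied genes and farther from the TSS, and Mst85C had a stronger and closer one. Their median rank was 6404, against a median best rank of 3100 over the 4087 occupied genes. None of the 5 had a peak in the strongest 10% of the IDR list, where 17.7% of occupied genes had one. A best peak at most 500 bp from its TSS was seen for 1 of the 5, Mst85C, and for 52.2% of occupied genes, and the median distance was 1005 bp against 426 bp.

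All 5 summits lay inside a different gene from the one they were assigned to. Of the 7660 IDR summits within 10 kb of a TSS, 782 (10.2%) lay only inside genes other than their assigned gene. That share is over summits of nested and other genes alike. Of the 5 genes here 4 are nested, so a summit close upstream of them readily falls inside the surrounding gene. Nesting was frequent among the reproductive genes. Of the 77, 24 (31.2%) lay wholly within the span of another protein-coding gene, compared with 13.4% of all protein-coding genes. Of the nested reproductive genes 4 of 24 were occupied (16.7%), and of the others 1 of 53 (1.89%), which was Mst85C. Over all genes the shares were 24.1% of nested and 30.1% of other genes.

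Short genes in dense clusters have little genome from which a summit can be assigned to them. The stretch nearest to a gene's start sites had a median of 2360 bp for the reproductive genes and 4246.5 bp for all genes. All genes were therefore divided into 3 equal classes by this length, at 2650 and 7170 bp. In the narrowest class 2 of 40 reproductive genes were occupied (5.0%), against 15.2% of all genes. In the middle class 1 of 23 was occupied (4.35%), against 25.6%, and in the widest 2 of 14 (14.3%), against 47.1%. The shares of reproductive genes were below those of all genes within each class, and no test applies to these differences.

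**Figure D2:**
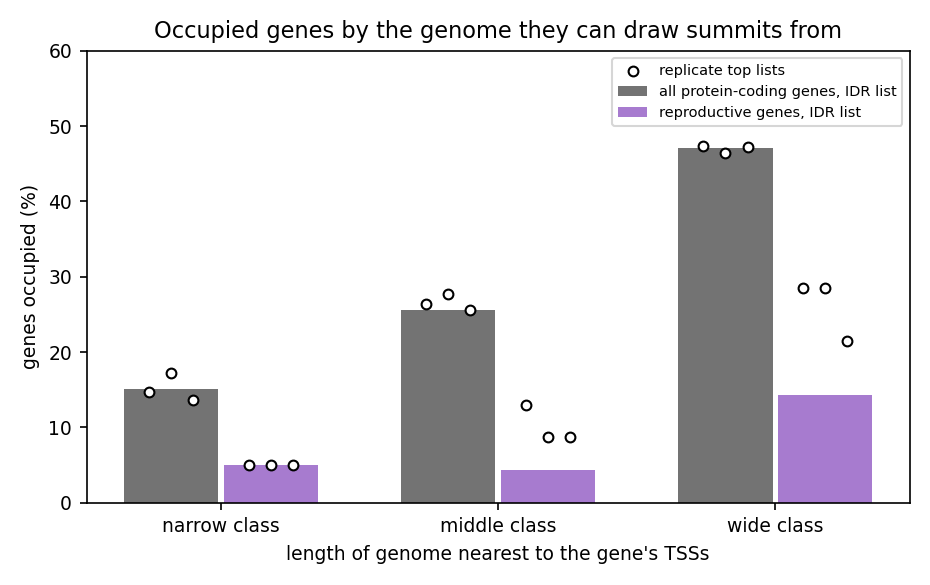
Percent of genes occupied in 3 equal classes of genes, ordered by how much genome lies nearest to their TSSs, for all protein-coding genes and for the 77 reproductive genes (bars, IDR list; points, the 8858 strongest peaks of each replicate). In the widest class 14.3% of reproductive genes and 47.1% of all genes were occupied in the IDR list, and the replicates gave 21.4% to 28.6% and 46.5% to 47.3%.

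The same count was taken in each replicate, over as many of its strongest peaks as the IDR list holds. Replicates 1, 2 and 3 gave 9, 8 and 7 occupied reproductive genes, or 10.4% ± 1.30 (SD, n = 3). The shares over all genes were 29.5%, 30.4% and 28.8%. Acp63F, Sfp65A, Mst33A and Mst85C were occupied in all 3 replicates. Acp26Aa, the gene of ovulin, which stimulates ovulation, and Acp62F, a protease inhibitor gene, were occupied in replicates 1 and 2, and Acp33A in replicates 1 and 3. Another 6 genes were occupied in 1 replicate each, namely Sfp24Bc and Sfp79B in replicate 1, Mst57Dc and the sperm tail gene Mst87F in replicate 2, and Sfp51E and Sfp70A4 in replicate 3. The remaining 64 were occupied in none.

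Genes just past the end of the IDR list can be read from the pooled list, whose 8858 strongest entries are the IDR list. The last reproductive gene inside was Acp33A, at rank 8171. The next outside were Acp62F at rank 9160, Mst57Dc at 9384, Acp26Aa at 9461 and Sfp24Bc at 9975. Over all 30000 entries of the pooled list, which include background regions, 21 of 77 reproductive genes were assigned an entry (27.3%), against 48.5% of all genes. Over the 30000 entries of replicates 1, 2 and 3 the counts were 21, 19 and 23 of 77, against 49.0%, 50.0% and 52.3% of all genes. By class of genome length, the pooled list gave 3 of 40 (7.5%) against 24.1% of all genes in the narrowest, 7 of 23 (30.4%) against 45.2% in the middle and 11 of 14 (78.6%) against 76.4% in the widest. No reproductive gene was the nearest gene of an IDR summit more than 10 kb away.

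The distance from a TSS to the nearest IDR summit, whichever gene held that summit, does not depend on the assignment. Its median was 11371 bp for the 77 reproductive genes and 4740 bp for all protein-coding genes. For seminal fluid genes it was 12739.5 bp, for eggshell genes 9342.5 bp and for testis genes 6359 bp. These distances are not separate observations, because clustered genes share summits. The nearest summits of the 72 unoccupied reproductive genes were held by 47 distinct genes. In the replicate lists the median of the reproductive genes was 8632, 7200 and 10660 bp, and that of all genes 4682, 4223 and 4929 bp. The reproductive median was higher than that of all genes in each of the 3 replicates. Between replicates the median of testis genes ran from 6340 to 6396 bp, and that of seminal fluid genes from 7930 to 12037 bp. With 15 testis genes the median is the distance of 1 gene, in the IDR list Mst98Ca. Its narrow range therefore need not describe the group.

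**Figure D3:**
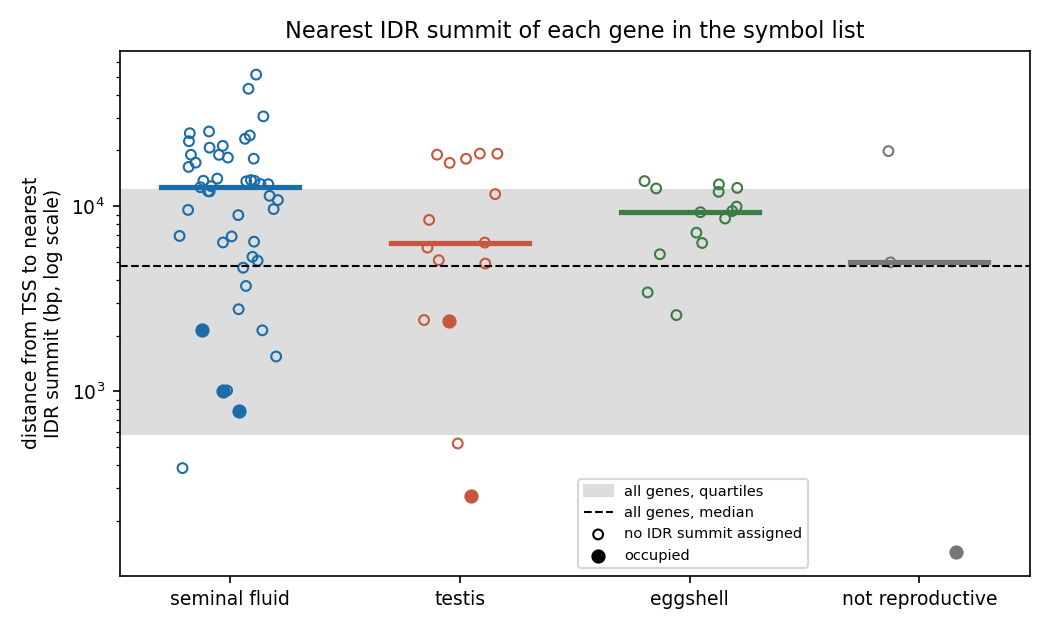
Distance from each gene's nearest TSS to the nearest IDR summit (bp, log axis) for the 80 genes of the list by role, with thick lines at the median of each role. Filled points are occupied genes, and the grey band and dashed line give the quartiles and the median of all protein-coding genes. The seminal fluid median (12739.5 bp) lay above the upper quartile of all genes (12220 bp), and the nearest eggshell gene stood 2581 bp from a summit.

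The share of reproductive genes with any IDR summit nearby was below that of all genes at each distance up to 10 kb. An IDR summit lay within 500 bp of a TSS in 2 of 77 reproductive genes (2.60%), Mst85C and Sfp26Ad, against 24.0% of all genes. Within 1 kb the counts were 4 of 77 (5.19%) and 28.0%, and within 5 kb 17 of 77 (22.1%) and 51.3%. Within 10 kb they were 37 of 77 (48.1%) and 69.6%. At 20 kb the shares were 87.0% and 86.5%.

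**Figure D4:**
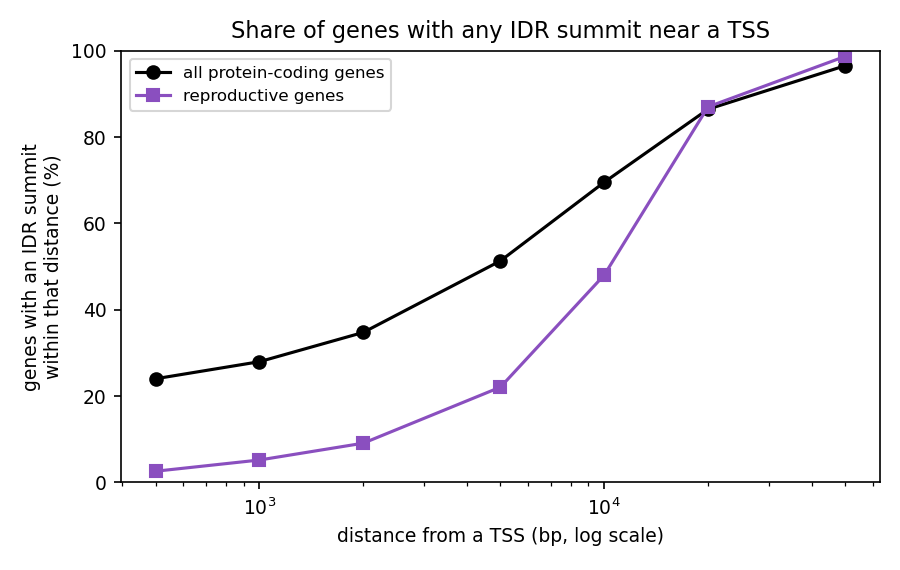
Percent of the 77 reproductive genes (squares) and of all 13945 protein-coding genes (circles) with any IDR summit within a given distance of a TSS (log axis). The curves stand apart from 500 bp (2.60% and 24.0%) to 10 kb (48.1% and 69.6%) and meet at 20 kb (87.0% and 86.5%).

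Of the 72 unoccupied reproductive genes, 32 had an IDR summit within 10 kb that belonged to a nearer TSS of another gene, and for 21 of these the nearest summit lay within 500 bp of that other TSS. Sfp26Ad was closest to a summit, at 385 bp. The summit, at rank 1038, stood 46 bp inside Gpdh1, the gene of the metabolic enzyme glycerol-3-phosphate dehydrogenase. The testis gene Mst36Fa stood 523 bp from a summit at rank 740 in an intron of CG31751. Sfp24F stood 1011 bp from a summit at rank 1355 in an intron of CG15431, and Acp95EF 1542 bp from one at rank 1540 at the promoter of mask, 45 bp upstream of its TSS. Sfp79B stood 2136 bp from a summit at rank 3340 that lay 2094 bp from a TSS of RpLP0, a ribosomal protein gene.

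The other 40 unoccupied genes had no IDR summit within 10 kb. Sfp87B, which lies within the nuclear receptor gene svp, was the farthest, at 51332 bp. Sfp78E followed at 43052 bp and Sfp70A4 at 30541 bp. Mst57Dc and Sfp96F stood 25305 and 24775 bp from the same summit, at rank 2175. Mst57Dc belongs to a group of accessory gland peptide genes, and with Mst57Da, Mst57Db and Sfp96F it lies in a stretch of 58978 bp between neighbouring IDR summits on 3R. Of the 8852 intervals between neighbouring IDR summits, 3.77% were at least that long, and the median interval was 5209.5 bp. Both values count each interval once, though a long interval holds more of the genome than a short one.

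Eggshell genes were without a summit at every level of the lists except 1. None of the 14 was occupied in the IDR list, in the strongest peaks of any replicate or anywhere in the 30000 entries of the pooled list. Among the 30000 entries of each replicate, Vm26Aa alone was assigned an entry, in replicate 3 at rank 18782, where 52.3% of all genes had one. The longest stretch nearest to an eggshell gene was 6764 bp, at Vm34Ca, so none fell in the widest class. In the narrowest and middle classes, 25.1% and 50.9% of all genes had an entry in replicate 3. In the IDR list 15.2% and 25.6% of all genes in these classes were occupied.

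The chorion genes form a cluster of 5 on X, Cp7Fa, Cp7Fb, Cp7Fc, Cp36 and Cp38, from 8470888 to 8483311, and a cluster of 4 on 3L, Cp18, Cp15, Cp19 and Cp16, from 8726791 to 8732599. Neither span held an entry of the IDR list, of the pooled list or of any replicate list. The X cluster lies wholly within the span of CG33223, on the opposite strand. Its nearest IDR summits were 6325 bp to the left, at the promoter of Sptr, a sepiapterin reductase gene (rank 318), and 8472 bp to the right, in an intron of CG33181 (rank 7699). Around the 3L cluster they were 5500 bp to the left, 19 bp upstream of the TSS of CG32022 (rank 267), and 8756 bp to the right, in an intron of the paramyosin gene Prm (rank 8407). The intervals between these summits were 27220 bp on X and 20064 bp on 3L. Of all intervals between IDR summits, 14.0% and 19.9% were at least as long. Such shares count each interval once, and a long interval holds more of the genome than a short one. They therefore do not show that these stretches are unusually empty. Distances from the single TSSs ran from 5500 bp for Cp18 and 6325 bp for Cp7Fa to 12464 bp for Cp36 and 12554 bp for Cp7Fc, with Cp15, Cp19, Cp7Fb, Cp16 and Cp38 at 7190, 8574, 9274, 9411 and 9946 bp.

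The vitelline membrane genes Vm26Ab, Vm26Ac and Vm26Aa lie together on 2L from 5957004 to 5960340, with no IDR or pooled entry within the span. Their start sites were 13116, 13656 and 11947 bp from the nearest IDR summit. The interval of 28399 bp around them also contains psd, another eggshell gene, and is closed by a summit at Gpdh1 on the left and by a summit in an exon of the profilin gene chic on the right. Vm32E, within the calcium channel subunit gene Ca-beta, stood 2581 bp from a summit in an intron of that gene at rank 8715, which is 1188 bp from a TSS of Ca-beta. Vm34Ca stood 3422 bp from a summit at rank 1032, assigned to CG42784 at 378 bp.

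**Figure D5:**
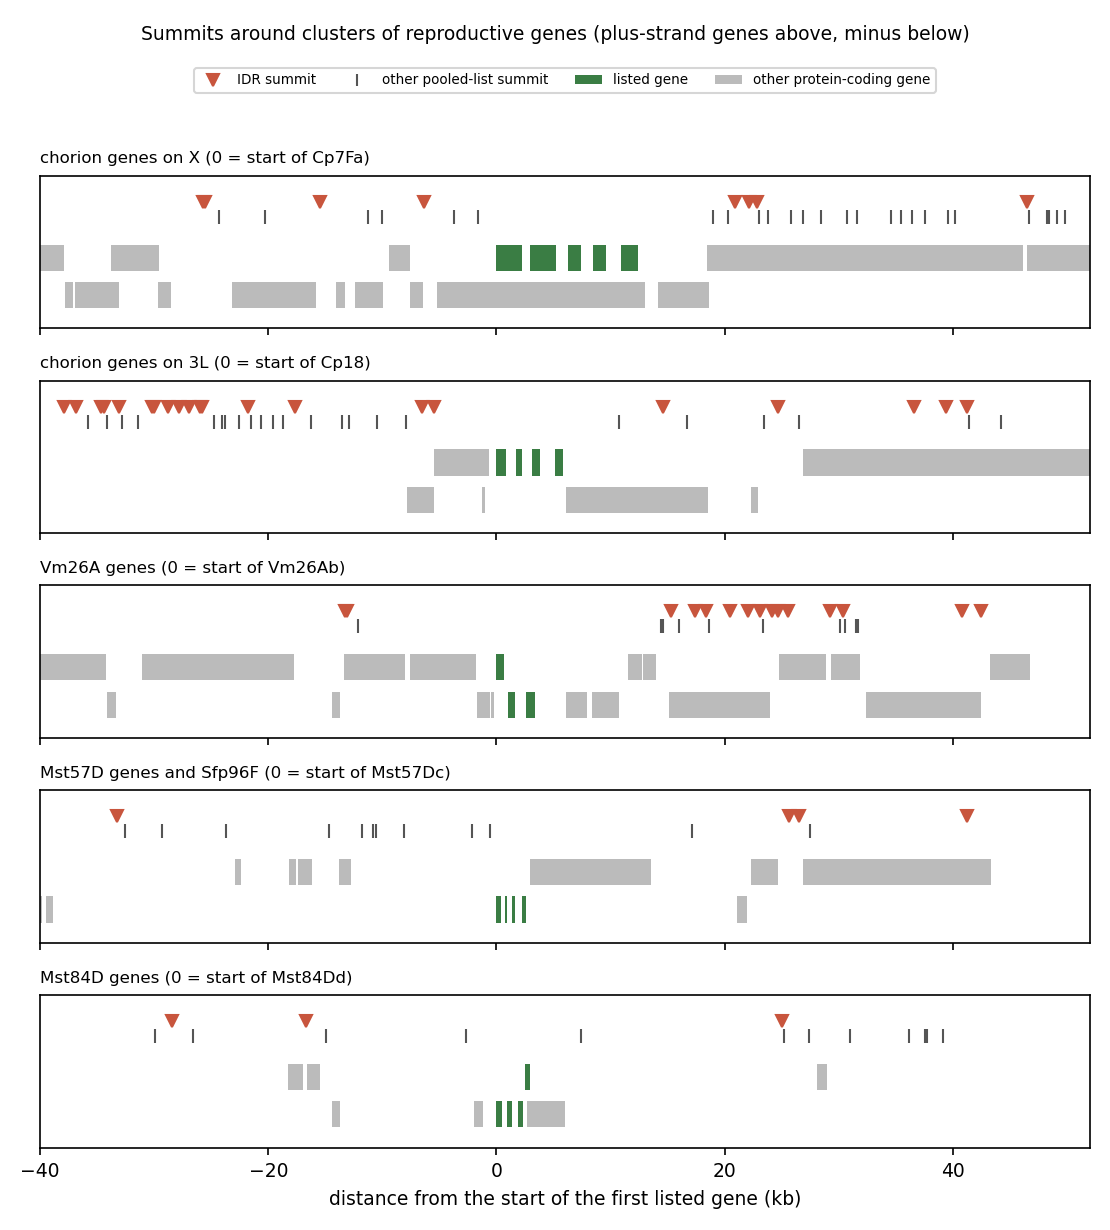
Positions of summits (triangles, IDR list; ticks, weaker entries of the pooled list) around 5 clusters of reproductive genes (green) and other protein-coding genes (grey), with plus-strand genes above and minus-strand genes below. The horizontal axis is the distance in kb from the start of the first listed gene. No IDR summit lay within any of the 5 clusters, and the intervals around them ran from 20064 bp at the 3L chorion genes to 58978 bp at the Mst57D genes.

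Clusters of male genes also lay in intervals above the median length. The share of all intervals at least as long is given in parentheses. The Mst84D genes, which encode sperm tail proteins, lay in an interval of 41646 bp on 3R (7.25%). The 4 Sfp24B genes lay in 1 of 45687 bp on 2L (6.18%). Acp53C14a, Acp53C14b, Acp53C14c, Acp53Ea and Sfp53D lay in 1 of 39030 bp on 2R (8.2%). Acp26Aa and Acp26Ab lay in 1 of 27916 bp on 2L (13.6%). The longest was 79070 bp around Sfp33A2, Sfp33A3 and Sfp33A4, within the phosphodiesterase gene Pde1c (1.93%). Mst36Fa and Mst36Fb lay in 1 of 19272 bp (20.7%) and Mst98Ca and Mst98Cb in 1 of 19585 bp (20.4%). The span of Mst33A and Acp33A, by contrast, held 1 IDR summit. The median of 5209.5 bp and the shares in parentheses count each interval once, and a long interval holds more of the genome than a short one. A cluster with no summit inside must also lie in an interval longer than its own span. Lying above the median is therefore not particular to these clusters.

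Other members with known roles had no IDR summit either. Acp36DE, needed for sperm storage, stood 18293 bp from the nearest, and its 3 pooled-list entries began at rank 18460. Acp29AB, a lectin gene also involved in sperm storage, stood 8949 bp away with no entry in any list. The serpin gene Acp76A stood 6430 bp away, with 1 pooled entry at rank 14907. Mst77F, which encodes a linker-histone-like protein of sperm chromatin, stood 19219 bp away with no entry in any list. Of the 2 cuticle genes, Acp1 stood 19826 bp and Acp65Aa 4973 bp from an IDR summit, and neither was occupied.

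The promoters of the chorion genes, whose spans held no entry in any list, are shown for the elements they carry. The 100 bases before the TSS are given for 4 chorion genes, from the same sequence and on the strand of the gene, with the TATA box TATAAA and the chorion gene hexamer TCACGT in capitals.
Cp15 promoter (chr3L:8728381-8728480, plus strand): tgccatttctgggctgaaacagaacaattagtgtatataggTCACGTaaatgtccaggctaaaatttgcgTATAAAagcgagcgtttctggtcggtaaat
Cp18 promoter (chr3L:8726691-8726790, plus strand): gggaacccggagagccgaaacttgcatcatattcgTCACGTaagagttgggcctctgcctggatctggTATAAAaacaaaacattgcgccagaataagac
Cp36 promoter (chrX:8479219-8479318, plus strand): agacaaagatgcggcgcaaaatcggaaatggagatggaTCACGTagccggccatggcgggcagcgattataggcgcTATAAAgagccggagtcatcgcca
Cp38 promoter (chrX:8481737-8481836, plus strand): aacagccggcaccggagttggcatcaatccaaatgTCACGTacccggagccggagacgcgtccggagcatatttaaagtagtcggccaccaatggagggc

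Within 250 bases before the TSS and on either strand, TCACGT lay in 7 of 9 chorion promoters, and in 5.17% of all protein-coding promoters of equal length. It began 59, 65, 62 and 65 bases before the TSS in the 4 genes printed, 60 before that of Cp19, 79 before that of Cp16 and 85 before that of Cp7Fc. TATAAA lay in 10 of 14 eggshell promoters (71.4%), beginning 24 to 34 bases before the TSS in each of them, and in 43.0% of all promoters. It lay in 31 of 48 seminal fluid promoters (64.6%) and in 4 of 15 testis promoters (26.7%). These counts and the 43.0% take a match anywhere in the 250 bases, and positions are given for eggshell genes only. The share of A and T bases was 63.9% in the promoters of the 77 genes and 61.7% in all promoters.

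The homeodomain core TAATTA, by the same count, lay in 0 of 14 eggshell promoters, 1 of 15 testis promoters (6.67%) and 14 of 48 seminal fluid promoters (29.2%), against 19.4% of all promoters. Of the 14 seminal fluid genes with TAATTA in the promoter, 1 was occupied, Acp33A, beside 3 of all 48 seminal fluid genes (6.25%). The Acp33A summit lay 1005 bp upstream of the TSS, outside the promoter window, and the bases around it held no TAATTA. The elements TATCGATA, bound by the factor DREF, and GGTCACAC, bound by the factor M1BP, lay in 0 of the 77 promoters, against 8.0% and 4.21% of all promoters. A match describes the letters of the window and does not show that a factor was bound.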

How the data were processed

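Each of the 3 replicates has a deposited list of 30000 peaks and background regions on dm6, made from its reads and a control's, per the deposited notes. A pooled list came from the reads of all 3, and the list of 8858 IDR peaks from these 4 lists. No source used here names the aligner, the peak caller or the IDR threshold. The authors' signal value, on a scale not given, ranked peaks within a list. A deposited column, taken to be a q-value on the −log10 scale, gave an alternative ranking. The summit is the peak start plus the deposited offset. Deposited lists on dm3 were not used here.

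TSSs were those of protein-coding transcripts in Ensembl release 115. Its chromosome names, and the lengths of the RefSeq Release 6 sequence, match the dm6 lists. A summit went to its nearest TSS, and a TSS shared by genes to 1 of them, which touched 0 of the 80 genes here. A gene's length of nearest genome is bounded by midpoints between TSSs. A replicate peak supported an IDR summit within 250 bp. The labels call the 3 samples biological replicates. The steps were tested on simulated positions. Python 3.11.15, pandas 2.3.3, numpy 2.4.6 and matplotlib 3.10.9 were used.

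The members and lists were chosen with earlier results of these data known. Named genes were every occupied, vitelline membrane, chorion and non-reproductive member, the 5 unoccupied members nearest to an IDR summit and the 5 farthest, and up to 4 occupied genes of each related list; other members were named after their values were seen. No test was made. Other distances, TSS sets, list lengths and replicate subsets were tried as alternatives. Intervals that need read counts cannot be given.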

Additional observations from a re-analysis of the deposited data

How the results depend on the processing

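Under the alternatives, 36 values stayed within 1.5 times the count, or within 1 SD between replicates, and 27 moved. The count of occupied genes was 5 of 80 with a limit of 5 kb and 6 with 20 kb, since no listed gene holds a summit farther off. With 1 kb it was 3 (1 seminal fluid gene, 1 testis gene), and among the stronger IDR peaks 2 (0 and 1). When the peak interval had to overlap the TSS it was 1, Cp190, with 0 seminal fluid and 0 testis genes. Counting any TSS within 10 kb of a summit gave 39 (19 seminal fluid, 9 testis and 9 eggshell genes). With the 5' end of the gene as its only TSS, Acp62F, Sfp79B and Vm32E were gained, so that 9 genes were occupied, 5 of them seminal fluid genes and 1 an eggshell gene. The share of all genes moved too, to 27.25% at 5 kb, 21.2% at 1 kb, 30.63% at 20 kb, 69.55% with any TSS, 18.88% in the stronger part and 15.99% with overlap.

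In IDR peaks supported by both other replicates, the count ran from 5 to 6, with Acp33A lost without replicate 1 and without replicate 3, and the share of all genes from 23.92% to 24.8%. The median distance of the 80 genes to a summit, 11079.5 bp, was 13715.5 bp in the stronger part of the list. The mean count in replicate lists, 9.0 ± 1.0 (SD, n = 3), was 22.67 over whole lists and 2 over the stronger part. The cause of these moves was not tested beyond what each setting removes or adds. No paired analysis was possible because the labels give 1 group. Unknown depth limits what an absent peak can show.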

Other observations

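Related genes outside the symbol list were read in the same way, beside 29.3% of all protein-coding genes. Of 16 other seminal fluid genes, which include SP (sex peptide), 1 was occupied, the lectin gene lectin-46Cb, at rank 8661. Of 14 other eggshell genes, which include dec-1, psd and Vml, 0 were occupied, and of the 3 yolk protein genes 0. Of 12 other testis genes 4 were occupied. They were bol (rank 1521, 6 summits), a translation regulator of meiosis, the protamine gene ProtB (rank 1740), loopin-1 (rank 3516) and Tpl94D (rank 4880). In that order, their strongest summits lay 2139, 3962, 7913 and 2901 bp from the TSS, that of loopin-1 in an intron of Sema2a. Of 11 testis transcription regulators 3 were occupied, sa at rank 3771, Taf12L at 5299 and can at 7342, each more than 4 kb from its TSS. The summits of sa and Taf12L lay in introns of other genes, rgn and dcma. The replicates gave 1, 2 and 1 other seminal fluid genes, 4 other testis genes each, and 1, 0 and 0 other eggshell genes. In replicates 1 and 2 the counts of other seminal fluid genes did not rest on the lectin-46Cb peak.

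Regulators of these tissues gave counts on both sides of the share of all genes. Of 10 transcription factors of accessory gland or follicle cells 8 were occupied, and the replicates gave 7, 8 and 8. The strongest peaks were those of the ecdysone receptor gene EcR (rank 1013, 3 summits), the Hox gene Abd-B (rank 1450), ttk (rank 2074, 5 summits) and br (rank 3448), all in introns of the same genes, while prd and dsx had none. These 10 genes were not divided by class of genome length, across which the share of all genes ran from 15.2% to 47.1%. Of 15 factors of chorion gene amplification 3 were occupied, and the replicates gave 4, 3 and 3. They were chif (rank 43, 968 bp upstream of a TSS), Dp (rank 238, 225 bp upstream) and E2f1 (rank 1386, 7 summits), while none of the 6 origin recognition complex genes was. These factors also act in embryos, and whether that bears on their peaks was not tested. The lists were not tested against one another.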
